A study of Mus musculus with 39 samples.

Results

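The regions described here are 619 broad H3K4me3 domains of the mouse cerebellum at postnatal day 7 (P7) that carried no H3K27me3. They were selected on the P7 peak lists themselves. A consensus region was a stretch covered by the peaks of at least 2 libraries of 1 mark and stage, and the members are the P7 H3K4me3 consensus regions of 3000 bp or more that touched no P7 H3K27me3 consensus region. They made up 5.53% of the 11192 P7 H3K4me3 consensus regions. Another 220 were as broad but overlapped H3K27me3, and 7460 were shorter and free of H3K27me3. Width and absence of H3K27me3 at P7 are thus the rule, not a result. What follows is the fate of the members at P12 and P21, and what they hold.

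The libraries came from cerebella of C57Bl/6J mice. At P7 the material was granule cell progenitors, enriched by sedimentation on Percoll. At P12 and P21 it was granule cell nuclei sorted for both NeuN and NeuroD1, and the chromatin was sonicated longer than at P7. Stage and isolation therefore cannot be told apart in any comparison with P7, while P12 and P21 shared the isolation. H3K4me3 was profiled by chromatin immunoprecipitation and sequencing (ChIP-seq) in 3 libraries at P7, 2 at P12 and 2 at P21, and H3K27me3 in 5, 4 and 5. Nothing in the labels says that replicates came from separate animals or pools, so the p-values measure the spread between libraries, which may be technical. The deposited counts over all transcription start sites (TSS) totalled between 431401 and 5653193 per H3K4me3 library and between 264093 and 2035801 per H3K27me3 library. As a gauge of enrichment, the strongest 5% of TSS began at 4.31 to 6.63 times the median TSS count in the P7 H3K4me3 libraries and at 2.71 to 3.79 times in the later ones. In bulk chromatin, fewer cells with a mark and less of the mark per cell cannot be told apart.

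H3K4me3 is written by the SET1 and MLL methyltransferase complexes and marks the start of active genes, usually as a narrow peak behind the TSS. The SET1 complexes are drawn to unmethylated CpG islands through the CXXC protein CFP1. In many tissues the broadest H3K4me3 domains lie on genes that define the identity of the cell type. H3K27me3 is written by Polycomb repressive complex 2 (PRC2) and marks silenced developmental genes. Granule cell progenitors divide in the external granule layer under the mitogen Sonic hedgehog (Shh), leave the cell cycle, migrate inwards and mature into the most numerous neurons of the brain.

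The promoter windows of 6 members are shown because they stand for 3 outcomes: members that were among the longest at P7, members that later lay under H3K27me3, and members whose H3K4me3 was still broad at P21. Each window runs from 250 bases before to 50 bases after the RefSeq start (GRCm38.p6), 5′ to 3′ on the strand of the gene, with every CpG in capitals. Nr2f1 encodes a nuclear receptor of neural development and Bahcc1 a BAH domain protein, both among the longest.
Nr2f1 (chr13:78198824-78199123, minus strand): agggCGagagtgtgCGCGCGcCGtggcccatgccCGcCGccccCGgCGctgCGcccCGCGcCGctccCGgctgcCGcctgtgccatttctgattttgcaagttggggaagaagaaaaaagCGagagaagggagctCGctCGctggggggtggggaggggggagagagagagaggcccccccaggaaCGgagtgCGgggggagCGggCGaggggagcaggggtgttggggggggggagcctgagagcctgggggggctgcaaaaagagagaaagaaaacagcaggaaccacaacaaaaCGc
Bahcc1 (chr11:120232697-120232996, plus strand): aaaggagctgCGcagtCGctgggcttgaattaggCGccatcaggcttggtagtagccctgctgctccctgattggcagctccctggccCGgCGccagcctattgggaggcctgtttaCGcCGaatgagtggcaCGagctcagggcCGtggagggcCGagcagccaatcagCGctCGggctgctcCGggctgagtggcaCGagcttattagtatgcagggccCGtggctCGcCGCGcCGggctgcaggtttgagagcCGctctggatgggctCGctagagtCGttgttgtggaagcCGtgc
Mycn, the Shh-induced driver of progenitor proliferation, and Tle1, a Groucho family corepressor, were covered by H3K27me3 at P21.
Mycn (chr12:12941787-12942086, minus strand): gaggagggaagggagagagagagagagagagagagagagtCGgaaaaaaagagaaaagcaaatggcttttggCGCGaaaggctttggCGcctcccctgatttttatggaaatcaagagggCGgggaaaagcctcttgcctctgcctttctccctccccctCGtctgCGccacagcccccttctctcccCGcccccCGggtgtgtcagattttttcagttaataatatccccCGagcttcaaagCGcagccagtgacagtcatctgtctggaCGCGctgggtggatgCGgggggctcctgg
Tle1 (chr4:72200844-72201143, minus strand): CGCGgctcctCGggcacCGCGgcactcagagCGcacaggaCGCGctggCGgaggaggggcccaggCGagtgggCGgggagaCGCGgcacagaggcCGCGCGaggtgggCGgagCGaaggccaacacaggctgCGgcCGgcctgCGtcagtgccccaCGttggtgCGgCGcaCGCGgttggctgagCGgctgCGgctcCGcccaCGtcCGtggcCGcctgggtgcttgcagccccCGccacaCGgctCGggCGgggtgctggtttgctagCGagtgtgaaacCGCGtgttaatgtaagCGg
Foxo3, a forkhead transcription factor, and Anp32a, an acidic nuclear phosphoprotein, kept long H3K4me3 regions.
Foxo3 (chr10:42276646-42276945, minus strand): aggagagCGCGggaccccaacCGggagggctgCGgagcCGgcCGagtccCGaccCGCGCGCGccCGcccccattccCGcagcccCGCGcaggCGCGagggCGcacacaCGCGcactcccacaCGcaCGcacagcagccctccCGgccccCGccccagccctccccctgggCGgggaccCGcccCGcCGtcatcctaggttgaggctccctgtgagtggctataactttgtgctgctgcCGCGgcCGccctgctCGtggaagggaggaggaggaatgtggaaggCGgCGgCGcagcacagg
Anp32a (chr9:62341093-62341392, plus strand): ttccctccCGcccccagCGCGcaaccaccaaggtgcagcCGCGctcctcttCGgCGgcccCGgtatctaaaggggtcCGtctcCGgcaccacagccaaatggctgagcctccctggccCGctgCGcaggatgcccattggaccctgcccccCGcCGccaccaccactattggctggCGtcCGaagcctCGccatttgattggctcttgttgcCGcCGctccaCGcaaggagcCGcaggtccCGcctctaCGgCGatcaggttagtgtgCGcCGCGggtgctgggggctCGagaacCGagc
The 6 windows held 23, 23, 14, 40, 35 and 29 CpG in the order shown. Of 32851 RefSeq windows of this length, 873 lay whole within a member, over 403 members and 688 genes. Their median was 26 CpG (quartiles 18 and 35) against 7 (3 and 20) over all windows. The GC box GGGCGG, searched on both strands, was in 72.4% of the windows within members and in 35.7% of all windows. CCAAT was in 40.8% against 37.4%, TATAAA in 4.47% against 13.6% and the E-box CACGTG in 11.2% against 7.15%. These shares are descriptions of the letters, with no test. Windows within other P7 H3K4me3 regions were not counted apart, so the shares do not single out members among promoters with H3K4me3. Over whole regions, median CpG density was 5.22 per 100 bases in members. It was 4.88 in shorter regions without H3K27me3 and 5.86 in broad regions with it. Of the longest members, Nfib and Zic2 are named here without a window, as are Myc and Zeb2os among those later under H3K27me3.

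The members ranged from 3000 to 13500 bp, with a median of 3566 bp and quartiles of 3226 and 4273 bp. Of the 619, 201 reached 4000 bp and 74 reached 5000 bp. The 3 members just inside the threshold measured 3000, 3001 (Ankrd11) and 3002 bp (Cstf1). The 3 regions just outside measured 2994 (Mbtd1), 2993 (Fam120a) and 2992 bp (Ubald1). A gene TSS of the count table lay inside 508 members, and a curated transcript start inside 597.  Together the members held the TSS of 721 genes.

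Many members held several start sites. Of the members, 199 (32.2%) held 2 or more TSS, against 14.6% of the shorter regions and 11.8% of the broad regions with H3K27me3. These shares are a description, and the broad regions with H3K27me3 had a median length of 3700 bp. The region at Ring1, a Polycomb ubiquitin ligase, held 4 TSS, and those at Fkbp2, Dalrd3 and Actg1 held 3 each. In the 493 members that could be named by a protein-coding or other named gene, 395 extended further into the gene than upstream of it. The median reach was 1212 bases upstream and 2503 bases downstream. Median GC content was 55.2% and median CpG density 5.22 per 100 bases. Shorter regions without H3K27me3 had 54.8% and 4.88, and broad regions with H3K27me3 had 58.6% and 5.86.

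The longest domain of all lay on Nfib, a transcription factor required for granule neuron maturation. It spanned 13500 bp (chr4:82496532-82510031, minus strand gene), of which 10219 bases lay downstream of the TSS. The next named domain, 12791 bp at chr9:91358216-91371006, took in the divergent pair Zic4 and Zic1, zinc finger factors of the granule lineage. The domain at Zic2, another member of that family, spanned 11234 bp. Nr2f1 followed with 10042 bp. Bahcc1 (9253 bp), Zbtb18 (8885 bp), a zinc finger repressor, and Arid1a (7775 bp), a subunit of the BAF chromatin remodeller, came next. Rhof and Setd1b, an H3K4 methyltransferase, shared 7094 bp. Of comparable length were an 11940 bp domain at chr15:85669789-85681728, with no TSS, and a 10233 bp domain at chr7:79499093-79509325, with the microRNA gene Mir9-3 and its host transcript. Both lie outside the naming rule and were picked after their values were seen.

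The gene lists were spread unevenly over the members. They were chosen with earlier results of these data known, so their shares are a description with no test. Over all 23985 genes with a record, 3.01% (721) had their TSS in a member and 42.9% (10294) in some P7 H3K4me3 region. In the gene lists the latter share was higher. It ran from 47.2% for mature granule cell and synapse genes to 90.0% for progenitor and Shh genes and for ribosomal protein genes. RNA processing genes had 79.6%. Part of a high share in members may thus be shared with H3K4me3 regions of any width, which was not tested. Of 49 RNA processing genes 16 did (32.7%), among them Hnrnpa2b1, Hnrnpl, Hnrnpdl and Srsf2. Of 70 transcription factors of the granule lineage 18 did (25.7%), among them Nfib, Zic1, Zic2 and Sox11. Broad regions with H3K27me3 held 21 of these 70, although only 0.851% of all genes lay in them. They also held 6 of the progenitor and Shh genes and 6 of the axon guidance genes, as many as the members, but none of the RNA processing genes. The share was 8 of 33 tumour suppressor genes, 8 of 36 immediate early genes, 9 of 42 writers and erasers of the marks, 6 of 30 progenitor and Shh genes, 8 of 43 cell cycle genes, 9 of 54 immature neuron genes, 6 of 55 axon guidance genes and 3 of 40 ribosomal protein genes. None of the 53 genes of mature granule cells and synapses lay in a member, although 25 of them lay in some P7 H3K4me3 region. Broad regions with H3K27me3 held 4 of the 53 (7.55%), so some had broad H3K4me3 at P7 but were left out by the rule. As a check of the label, 3 of 8 granule cell markers (Etv1, Zic1 and Zic2) lay in members. None of the markers of astrocytes, oligodendrocytes, microglia, vessel cells, Purkinje cells and interneurons or unipolar brush and nuclear cells did. With 3.01% of all genes in members, lists this short are a weak check. In the same order, some P7 H3K4me3 region held 5 of 12, 1 of 10, 1 of 10, 2 of 10, 5 of 14 and 2 of 9 of these markers. For granule cell markers it was 5 of 8. The rule also left out regions with P7 H3K27me3, which weakens the check further. Broad regions with H3K27me3 held 1 marker each of astrocytes, of Purkinje cells and interneurons, and of unipolar brush and nuclear cells. They held 2 of the 8 granule cell markers.

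After P7 most members kept H3K4me3 but few stayed broad. An H3K4me3 consensus region met 526 of the 619 at P12 (85.0%) and 487 at P21 (78.7%). At both stages 459 were met and at neither 65. The share of member bases under H3K4me3 was 41.3% at P12 and 36.4% at P21. A single H3K4me3 region of 3000 bp or more met 45 members at P12 and 25 at P21, and 1 member had a longer region at P21 than at P7. Among the members that were met, the median length of the longest region was 1802 bp at P12 and 1661 bp at P21.

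The loss of cover was on both flanks. At 1000 bases upstream of the TSS, 61.9% of the 493 named members lay under P7 H3K4me3, 17.9% under P12 and 14.2% under P21 H3K4me3. At 2000 bases into the gene the shares were 68.2%, 18.7% and 15.6%. At 1000 bases into the gene they were 99.0%, 63.5% and 59.0%. The TSS itself was covered in 57.4% at P12 and 50.3% at P21.

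**Figure D1:**
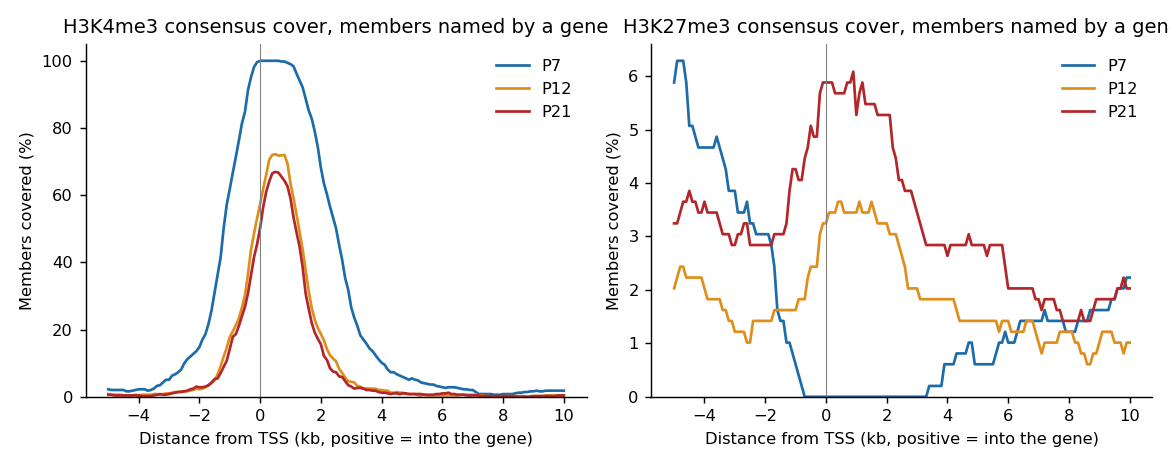
Share of the 493 named members (y axis, %) covered by consensus regions at each distance from the TSS (x axis, kb, positive into the gene), for H3K4me3 on the left and H3K27me3 on the right at P7 (blue), P12 (orange) and P21 (red). H3K4me3 at P12 and P21 covers a narrower stretch that falls to 18.7% and 15.6% at 2 kb, and the right panel has an axis that ends near 6%.

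Cover also differed between libraries of the same stage. By library, H3K4me3 peaks covered 99.988%, 77.4% and 98.4% of member bases at P7 (replicates 1 to 3), 53.8% and 48.3% at P12, then 38.5% and 66.5% at P21. The P7 and later libraries do not overlap in this share, a contrast that the selection at P7 fixes in part. The deep P21 replicate 2 (2092414 counts) covered more than either P12 library, and the P12 and P21 ranges overlap. A single peak of 3000 bp or more met 619, 271 and 586 members at P7, 102 and 77 at P12, then 31 and 213 at P21. P7 replicate 2 and P12 replicate 1 had similar totals, 543138 and 512122 counts, with 77.4% and 53.8% of bases covered. P7 replicate 3 had 1461437 counts, fewer than P21 replicate 2, with 98.4% against 66.5%. Cover at P7 is high by the rule that chose the members, so these pairs do not separate depth from stage.

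A region had to be in 2 of 3 libraries at P7 but in 2 of 2 later. When 1 of the 2 later libraries was left out, the peaks of the other alone stood as the consensus, a looser rule. With P21 replicate 1 left out, 213 members met a single H3K4me3 region of 3000 bp or more at P21. With P12 replicate 1 or 2 left out, that number at P12 was 77 or 102. The membership rested on the 2 deeper P7 libraries, since 239 regions qualified without replicate 1 and 273 without replicate 3. The part of depth and of enrichment in the narrowing was not tested.

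**Figure D2:**
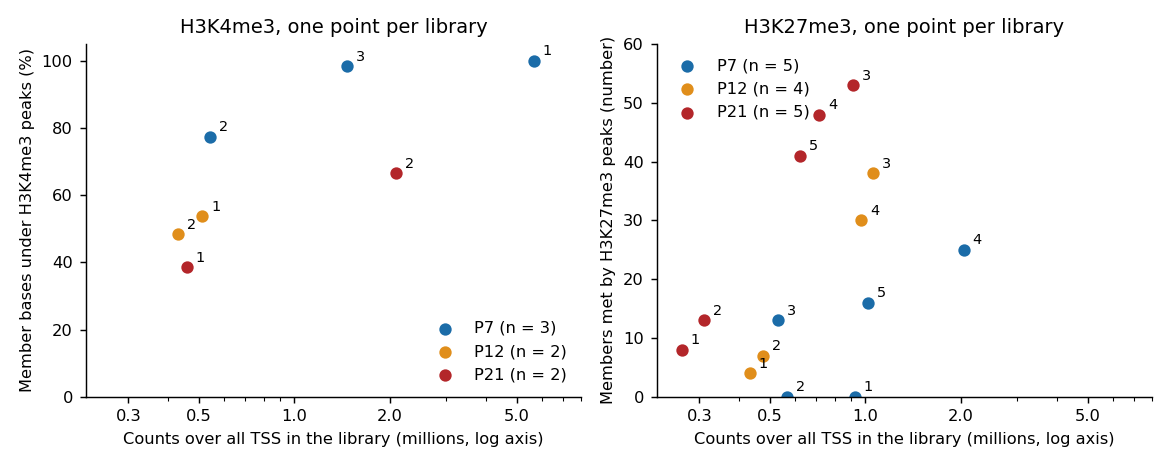
Each point is 1 ChIP library with its replicate number, against its total counts over all TSS (x axis, log scale). On the left the y axis is the share of member bases under the H3K4me3 peaks of that library, from 38.5% to 99.988%, and on the right the number of the 619 members met by its H3K27me3 peaks, from 0 to 53.

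The broad state at later stages was found mostly where it had been at P7. Of the 80 P12 consensus regions of 3000 bp or more, 45 lay on members, 25 on broad P7 regions with H3K27me3 and 2 on no P7 region. Of the 48 at P21, 25 lay on members, 18 on broad regions with H3K27me3 and 2 on no P7 region. Among shorter P7 regions without H3K27me3, 60.04% met H3K4me3 at P12 and 52.8% at P21, and their base cover was 40.4% and 35.9%, close to that of the members.

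Later cover as a share of P7 length was smaller in the longer members. The P7 length both chose the members and divides their cover, so these shares are a description. H3K4me3 met 87.3% of the members of 3000 to 3500 bp at P12 and 81.5% at P21. Of those of 7000 bp or more it met 87.5% at both stages. Members of 3000 to 3500 bp had 46.6% of their bases under H3K4me3 at P12 and 43.2% at P21. Those of 5000 to 7000 bp had 33.6% and 28.4%, and the 16 of 7000 bp or more had 32.3% and 24.998%. At Nfib the peaks of the 3 P7 libraries covered 13500, 10669 and 13500 bases, those of P12 covered 2792 and 3356, and those of P21 covered 4302 and 7660. Nfib and the Zic domains that follow were named for their length at P7, so the drop from P7 is fixed in part by the selection. At the Zic4 and Zic1 domain the P7 libraries covered 12791, 12221 and 12373 bases, P12 covered 4271 and 4537, and P21 covered 2771 and 4072. Zic2 kept more, with 11234, 9679 and 11234 bases at P7, 6490 and 7949 at P12, then 4898 and 8322 at P21.

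**Figure D3:**
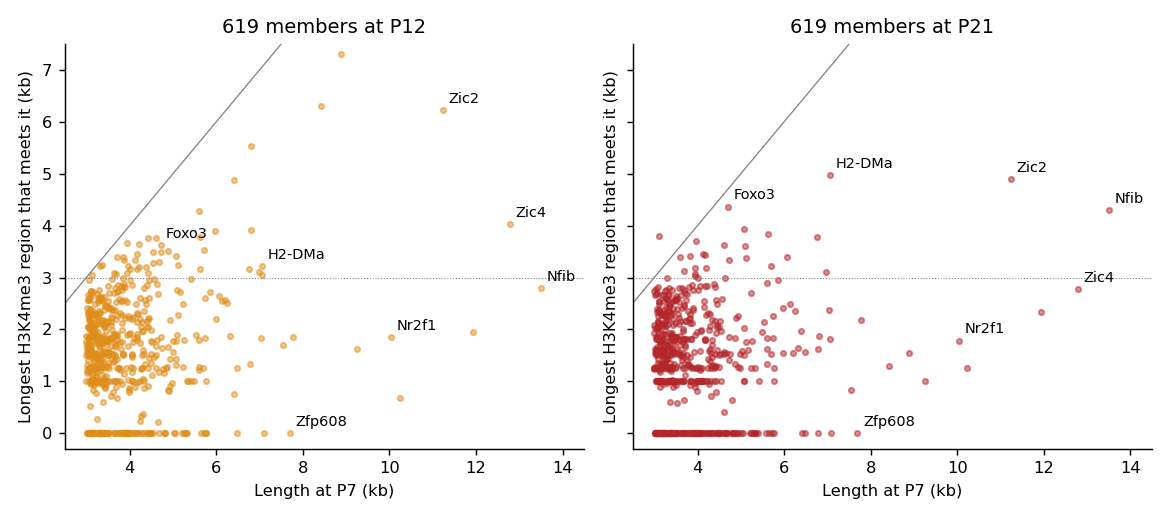
Length of each of the 619 members at P7 (x axis, kb) against the longest H3K4me3 consensus region that meets it at P12 (left) and P21 (right, y axes, kb), with 0 where none does. The solid line marks equal length and the dotted line 3 kb, which 45 members reach at P12 and 25 at P21.

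The 8 members with the longest P21 regions were H2-DMa (4968 bp, in a domain that also held the TSS of Brd2, a BET bromodomain protein), Zic2 (4898 bp), Foxo3 (4368 bp), Nfib (4302 bp), Anp32a (3931 bp), Mex3b (3848 bp), Gcc1 (3701 bp) and Mxi1 (3636 bp). Foxo3 was nearly constant in extent, with 4714, 4645 and 4646 bases under the P7 libraries, 3710 and 4423 at P12, and 4368 and 4690 at P21. Mxi1 encodes a MAX partner that antagonises MYC. Mex3b encodes an RNA-binding protein, and Gcc1 a golgin of the trans-Golgi network. Gcc1 had no P12 consensus region because 1 P12 library covered 3846 bases and the other none.

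The 6 longest named members without H3K4me3 consensus at P12 and P21 were Zfp608, Rhof with Setd1b, Wbp1 with Ino80b, Dcc, Tgif1 and Zeb2os. Zfp608, a zinc finger gene, had 7695, 6611 and 7695 bases under the P7 libraries, 1267 and 0 at P12, and 2554 and 0 at P21. Here 1 of 2 later libraries still had a peak, so absence from the consensus was not absence of the mark. The Rhof and Setd1b domain likewise had 1001 and 2002 bases at P12 and 0 and 3767 at P21. Tubb2b, a beta-tubulin of young neurons, had 4465, 2710 and 4465 bases at P7, 0 and 0 at P12, then 0 and 1550 at P21.

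TSS counts gave a separate reading of the same libraries. Of the 721 TSS in members, 626 passed the filter on low counts for H3K4me3. Between P12 and P21, edgeR's quasi-likelihood test with Benjamini-Hochberg adjustment over all 20748 TSS tested called none of them higher and none lower. The background was 0% of all TSS higher and 0% lower, so the 2 against 2 libraries called nothing anywhere. At an unadjusted p under 0.05 the counts were 12 member TSS and 206 TSS in all, and DESeq2 also called 0. The median log2 difference over the 626 was -0.04. Nfib stood at 95.4 and 89.7 CPM (counts scaled to the library size) at P12 and 78.0 and 83.9 at P21, a log2 difference of -0.18 (SE 0.29). Myc was at 74.4 and 69.5 CPM at P12 and at 39.0 and 46.4 at P21, with no overlap, and its log2 difference of -0.72 (SE 0.33) did not pass (adjusted p = 1).

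Comparisons with P7 are given without a reading, since the selection on P7 favours lower values later. P21 against P7 had 332 of 626 lower and 1, Rhof, higher, beside a background of 14.4% lower and 8.98% higher. P12 against P7 had 261 lower and 2 higher, beside 9.21% and 5.34%. In shorter P7 regions without H3K27me3, 33% of tested TSS were lower and 0.314% higher at P21, and 20% and 0.231% at P12. In broad regions with H3K27me3 the shares were 39.9% and 2.07% at P21, and 33.2% and 1.04% at P12. Among members 53% were lower at P21 and 41.7% at P12. Scaling moved the median log2 difference of all TSS for P21 against P7 from 0.19 to 0.41 with library totals and to -0.02 with trended scaling. The member medians were then -0.70, -0.47 and -0.29, and trended scaling left 117 lower at P21 and 57 at P12, beside 760 and 384 of all 20748 TSS. Without P21 replicate 1 or 2 the 332 became 103 or 142, and 218 without P7 replicate 1. Without P12 replicate 1 or 2 the 261 became 51 or 12, and 397 without P7 replicate 2.

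A small number of members passed under H3K27me3. At P12, 30 of the 619 were met by an H3K27me3 consensus region (4.85%) and at P21, 45 (7.27%), 29 of them at both stages and 16 at P21 alone. The bases covered were 3.01% and 4.99% of all member bases. The whole H3K27me3 consensus also grew, from 106.5 Mb at P12 to 181.5 Mb at P21. A region had to be in 2 of 4 libraries at P12 and in 2 of 5 at P21. The part of these in the rise at members was not tested. Of the 45, 26 had no H3K4me3 region at P21 and 19 carried both marks. The P21 region covered 14 of the 45 over their whole length and 30 over more than 50%. Among shorter P7 regions without H3K27me3 the share met was 1.61% at P12 and 2.78% at P21, and among broad regions with H3K27me3 at P7 it was 44.6% and 38.2%. In all, 468 members carried H3K4me3 alone at P21, and 106 neither mark.

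**Figure D4:**
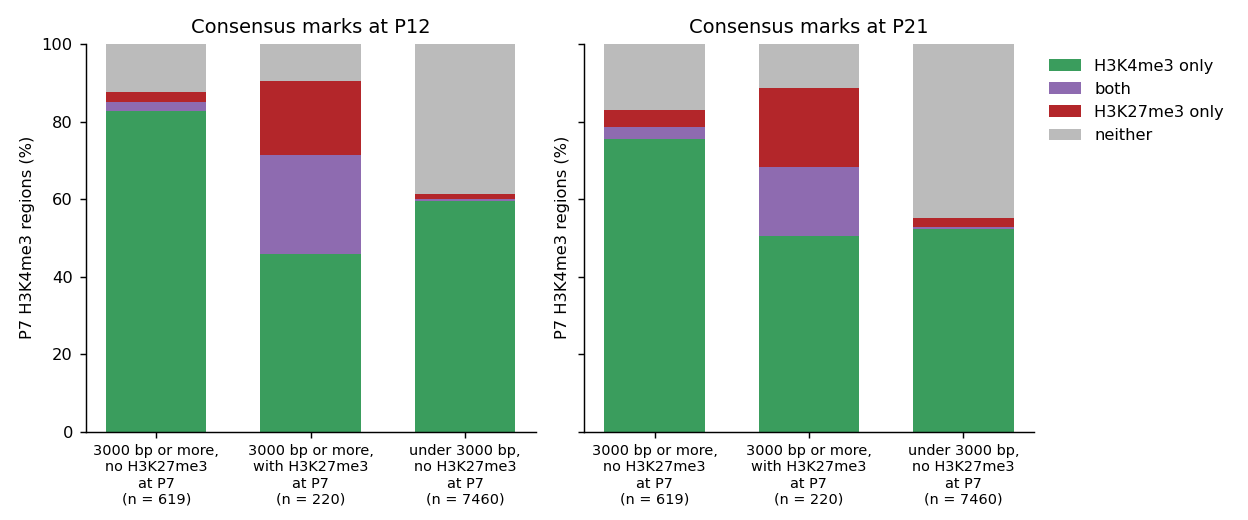
Share of P7 H3K4me3 regions (y axis, %) that met H3K4me3 only, both marks, H3K27me3 only or neither consensus at P12 (left) and P21 (right), for the 619 members, the 220 broad regions with P7 H3K27me3 and the 7460 shorter regions without it. Among members at P21 these were 468, 19, 26 and 106 regions.

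H3K27me3 peaks met more members in the libraries of replicates 3 and later, but these libraries also had more H3K27me3 peaks in the whole genome. At P21 the peaks of replicates 1 and 2 covered 25.3 and 24.5 Mb, and those of replicates 3, 4 and 5 covered 226.1, 147.9 and 197.5 Mb. The difference is therefore not particular to members, and its cause was not tested. By library, H3K27me3 peaks met 0, 0, 13, 25 and 16 members in the P7 replicates 1 to 5. The P12 replicates met 4, 7, 38 and 30, and the P21 replicates 8, 13, 53, 48 and 41. At each stage, replicates 1 and 2 share an input library by the labels and lie below the rest. Of the 45 members at P21, 13 were met by replicate 1 or 2. With the P12 replicate 3 or 4 left out, 8 members remained at P12 in place of 30. Input libraries of replicates 3 and later also had peaks at members. At P21 the inputs of replicates 3, 4 and 5 met 343, 487 and 3 of the 619 members, while the shared input met 0. The P21 ChIP libraries of replicates 3, 4 and 5 met 45, 38 and 41 of the 45, and their own inputs met 29, 36 and 2 of them. At P12 the ChIP libraries of replicates 3 and 4 each met all 30 members, and their own inputs met 24 and 17 of them. When every peak that touched an input peak was dropped before the regions were built, 772 regions met the rule, of which 4 met H3K27me3 at P12 and 11 at P21. That set differs from the 619, and the step drops a whole peak however little of it an input peak touches.

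Members under H3K27me3 at P21 held genes of several lists, progenitor and Shh genes among them. Of the 6 progenitor and Shh genes in members, Gas1, Gli2, Id2 and Mycn met H3K27me3 at P21, 3 of them with no H3K4me3 region. Granule lineage factors in regions that met it included Sox11, Tle1 and Tle4. Of 8 cell cycle genes only Myc did. Of 6 axon guidance genes Dcc and Plxnc1 did, and of 9 immature neuron genes Basp1. None of the regions with immediate early genes (8), RNA processing genes (16), writers and erasers (9), tumour suppressor genes (8) or ribosomal protein genes (3) met it. Over all 619 members the count was 45, and no list was tested.

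Mycn had the most bases under P21 H3K27me3, its whole 6778 bp (chr12:12936284-12943061) within a region of 10367 bp. Its peaks at P7 covered 0, 0, 1001, 0 and 0 bases, at P12 0, 0, 4957 and 1430, and at P21 2642, 3604, 6778, 6428 and 6778. Every P21 library had a peak there, and so had 2 of 4 at P12. H3K4me3 at the same domain covered 6778, 5345 and 6778 bases at P7, 3858 and 1479 at P12, then 0 and 3663 at P21. The P21 inputs of replicates 3, 4 and 5 covered 2002, 2152 and 0 bases of it.

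Myc, the proto-oncogene (4940 bp, chr15:61983708-61988647), had 1001, 0, 3887 and 3807 H3K27me3 bases at P12 and 2582, 2563, 4940, 4940 and 4940 at P21. At P7 it had none in any of the 5 libraries. Gli2, the transcription factor of the Shh pathway (3853 bp, chr1:119050963-119054815), was reached earlier, with 1907, 2319, 3853 and 3853 bases at P12 and 2713, 3853, 3853, 3853 and 3853 at P21, and none at P7. Its H3K4me3 covered 3853, 3285 and 3853 bases at P7 and 0 in all 4 later libraries. Trib2, a Tribbles pseudokinase, was met over all of its 3897 bp by each of the 5 P21 libraries. Tle1 (5768 bp), Zeb2os (5334 bp), the antisense transcript of Zeb2, Tgif1 (4168 of 5649 bp), a homeobox repressor, and Cd9 (3941 of 4048 bp), a tetraspanin, complete the 8 with most bases. Tle1 kept an H3K4me3 region of 1258 bp beside the H3K27me3. At Cd9 replicates 1 and 2 had no peak at P21. Input peaks of the P21 replicates 3 and 4 lay on several of these domains. They covered 1001 and 3946 bases at Myc, 1538 and 2276 at Tle1, 2220 and 1264 at Cd9, and 0 and 3383 at Tgif1. At Trib2 they covered 0 and 1947 bases, and 0 and 1001 at both Gli2 and Zeb2os. The input of replicate 5 and the shared input covered 0 bases in all 8 domains, and the part of the input peaks in this cover was not tested.

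The count test on H3K27me3 compares P21 with P12, a contrast the selection did not use. Of the 721 TSS, 196 (27.2%) passed the filter on low counts. The quasi-likelihood test (edgeR, adjusted over 18089 TSS) called 16 of them higher at P21 than at P12 and 0 lower, beside a background of 0.918% of all TSS higher and 3.06% lower. A TSS low at P12 could pass the filter through its P21 counts, so the share of those that passed carries no weight of its own. All 16 lay in members met by P21 H3K27me3 peaks, which come from the same libraries, and 12 of the 16 had no H3K4me3 region at P21. The 6 with the smallest p were Myc, Erbin, Mycn, Fnbp1l, Nav1 and Cd9.

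At the Myc TSS the H3K27me3 level was 32.7, 22.6, 76.2 and 57.5 CPM at P12 and 92.1, 75.8, 182, 125 and 143 CPM at P21. The lowest P21 library lay just under the highest P12 library, so the groups overlapped. The log2 difference was 1.32 (SE 0.26, edgeR adjusted p = 0.0003). At the Mycn TSS the level was 8.61, 8.07, 25.7 and 14.6 CPM at P12 and 31.6, 27.6, 73.8, 38.8 and 47.6 CPM at P21, with no overlap. Its log2 difference was 1.52 (SE 0.32, edgeR adjusted p = 0.00104).

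Erbin, a scaffold protein that binds ERBB2, had 12.1, 17.8, 67.3 and 68.6 CPM at P12 and 31.6, 57.4, 246, 187 and 107 CPM at P21. The groups overlapped, and the log2 difference within the fit was 1.46 (SE 0.29, edgeR adjusted p = 0.000535). Fnbp1l, an F-BAR protein of membrane bending, had 3.44, 11.3, 35.6 and 31.7 CPM at P12 and 5.27, 29.9, 116, 86.1 and 70.7 CPM at P21, also overlapping. Its log2 difference was 1.41 (SE 0.31, edgeR adjusted p = 0.00232). Nav1, a microtubule-associated protein of growing neurites, had 10.3, 19.4, 10.9 and 13.7 CPM at P12 and 18.4, 34.5, 52.4, 28.0 and 47.6 CPM at P21, a log2 difference of 1.48 (SE 0.36, edgeR adjusted p = 0.00693). Cd9 had 24.1, 33.9, 56.4 and 41.2 CPM at P12 and 55.3, 41.4, 147, 80.7 and 107 CPM at P21, a log2 difference of 1.03 (SE 0.27, edgeR adjusted p = 0.0122).

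**Figure D5:**
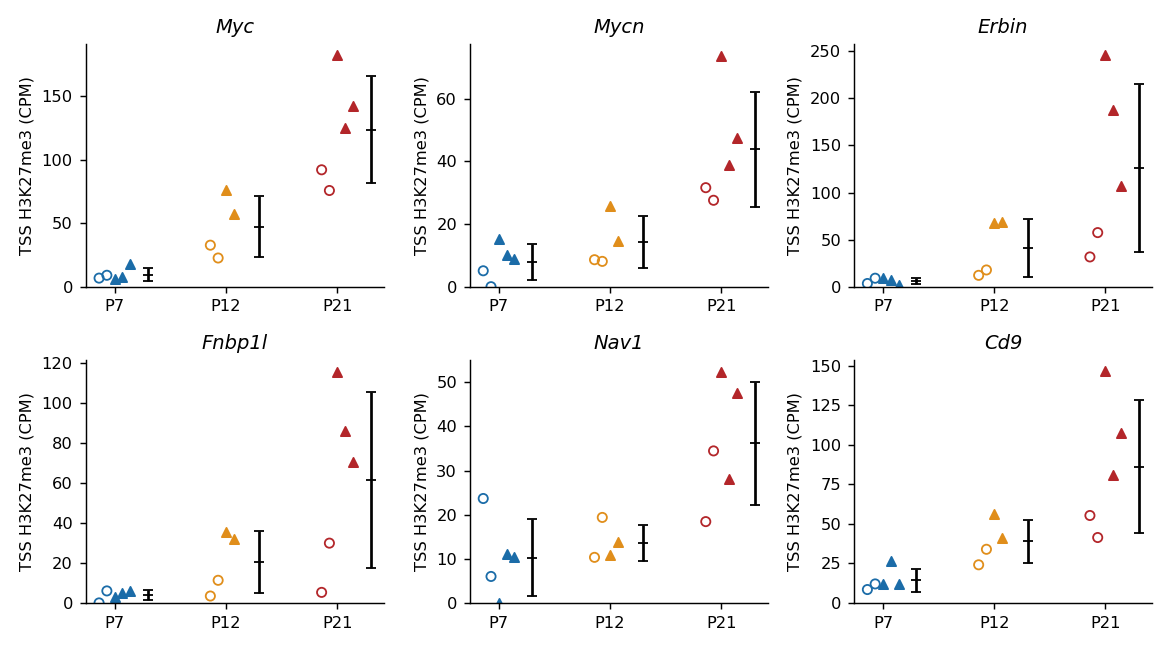
H3K27me3 level at 6 TSS (y axes, CPM) in each library at P7 (n = 5), P12 (n = 4) and P21 (n = 5). Open circles are replicates 1 and 2, which share an input, filled triangles are later replicates, and bars give the mean ± SD. Within either kind of replicate the P21 mean lies above the P12 mean in all 6 panels.

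The values within each input arrangement are a description, since these TSS were called on the same libraries. Among replicates 1 and 2, the log2 ratio of P21 to P12 mean CPM was 1.60 at Myc, 1.83 at Mycn, 1.58 at Erbin, 1.25 at Fnbp1l, 0.83 at Nav1 and 0.74 at Cd9. Among later replicates it was 1.17, 1.40, 1.41, 1.43, 1.79 and 1.19. With stage alone in the fit, 2 of the 16, Myc (adjusted p = 0.0196) and Mycn (adjusted p = 0.0324), were called by edgeR. Without P12 replicates 1, 2, 3 or 4 the count was 7, 6, 7 and 6, and without P21 replicates 2 or 3 it was 6 and 4. Cd9 lost its call without P12 replicate 1, 3 or 4 or P21 replicate 3, and Nav1 without P12 replicate 3 or P21 replicate 3. Another pair of members named here were called by edgeR, Trib2 (log2 difference 1.33, SE 0.34, adjusted p = 0.0163) and Plxnc1, a plexin (1.25, SE 0.37, adjusted p = 0.0403). These calls were less stable: Trib2 kept its call in 9 of the 14 fits that left out 1 library and Plxnc1 in 7. Trib2 lost it without P12 replicate 2, 3 or 4 or P21 replicate 2 or 3. Plxnc1 lost it without P12 replicate 1, 2 or 3 or any of P21 replicates 1 to 4. Both lost it with stage alone in the fit. Gli2, at 62.0, 85.6, 144 and 101 CPM at P12 and 86.9, 120, 226, 181 and 198 CPM at P21, was not (log2 difference 0.67, SE 0.24, edgeR adjusted p = 0.136).

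Against P7, where the absence of H3K27me3 was part of the rule, the counts are given without a reading. P21 against P7 had 100 of the 196 TSS higher and 10 lower, beside a background of 25.4% higher and 23.5% lower. P12 against P7 had 81 higher and 7 lower, beside 14.4% and 22%. In shorter P7 regions without H3K27me3, 31% of tested TSS were higher and 5.04% lower at P21, and 26.4% and 3.16% at P12. In broad regions with H3K27me3 the shares were 15.2% and 58.9% at P21, and 13.3% and 51.3% at P12. Among members 51% were higher at P21 and 41.3% at P12. With library totals P21 had 169 higher and 3 lower, and with trended scaling 40 higher and 17 lower. Over all 18089 TSS these scalings gave 12686 higher and 2429 lower, and 2508 higher and 3486 lower. In them the median log2 difference of all TSS was 1.42 and 0.08 in place of 0.34. Without P21 replicate 4 the 100 became 66, and without P12 replicate 4 the 81 became 49. The strongest 5% of TSS began at 21.9 to 38.4 times the median TSS count in the P7 H3K27me3 libraries and at 3.64 to 12.8 times in the later ones. The part of this in the counts was not tested.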

How the data were processed

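Histone marks were measured by ChIP-seq in 21 ChIP and 18 input libraries. The authors deposited a table of read counts per TSS for the ChIP libraries, used as raw counts, and a peak list for each of the 39 libraries. The score in the deposited peak lists has no stated meaning and was used in 1 alternative only. HOMER 4.11, ChIPseeker 1.30.3 and mm10 are named in the submitters' processing notes, with no role. For the aligner and the window counted per TSS, nothing is stated in these sources. Of 24045 gene IDs, 23985 had a record in the GRCm38.p6 annotation, and 6 genes with missing H3K27me3 counts were left out of that fit.

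Consensus regions, cover and distances were computed with Python 3.11.15, numpy 2.4.6 and pandas 2.3.3. A TSS belonged to a member when it lay inside it. Genes with nearby or divergent starts may share reads.

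Counts were filtered by filterByExpr, scaled by TMM and tested by the quasi-likelihood test of edgeR 4.0.16 in R 4.3.3, fitting the 3 stages of each mark together. H3K4me3 was fitted by stage, and H3K27me3 by stage and input arrangement. Two-sided p-values were adjusted over all TSS tested (Benjamini-Hochberg), with a threshold of 0.05. DESeq2 1.42.0 was an alternative. CPM use TMM library sizes. No p is given for cover, which is a score over members chosen with results known.

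Replicate numbers recur across stages. For H3K27me3, same-numbered P12 and P21 libraries deviated together (r across TSS 0.472, 0.349, 0.648 and 0.612 for numbers 1 to 4), so the numbers may pair them. The main fit, which gave the printed p-values, has no term for the number. A fit by stage with a block on the number, run as an alternative, called 12 member TSS higher at P21 than at P12 in place of 16. Libraries 1 and 2 also correlated across numbers (0.508 and 0.366), so for them the number cannot be told apart from the shared input. The block on the number left the calls of the 6 named TSS in place.

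Named members are the 15 longest with a gene name, the 8 with most P21 H3K27me3, the 8 with the longest P21 H3K4me3 region, the 6 longest without later H3K4me3, up to 4 per gene list by length, the 3 on either side of the length threshold, up to 6 called TSS per direction and the 4 with most TSS. Members and lists were chosen with earlier results of these data known. Promoter sequences are from RefSeq. The result of 1 gene is not reported here.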

Additional observations from a re-analysis of the deposited data

Results flagged for a closer look

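In 24 groups of H3K27me3 libraries tested for a library far from the rest, 2 stood out, where chance flags about 1 in 20. Both were at P7: the highest library was at 17.96 CPM at the Myc TSS (replicate 5) and at 26.37 CPM at the Cd9 TSS (replicate 4). Both values lie below every P12 library for Myc, and below all but 1 P12 library for Cd9.

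The inputs made for the H3K27me3 libraries were not part of the comparisons, yet the peak lists of 8 of them met members. At P7 the inputs of replicates 3, 4 and 5 met 426, 305 and 14 members. At P12 those of replicates 3 and 4 met 504 and 401. At P21 those of replicates 3, 4 and 5 met 343, 487 and 3. The shared inputs of replicates 1 and 2 and all inputs of the H3K4me3 libraries met 0.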

How the results depend on the processing

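The number of members and what they met depended on the width threshold, the peak lists and 1 or 2 libraries. With a threshold of 2000 bp there were 3261 members, 2691 with H3K4me3 at P12 and 2480 at P21, and 74 and 120 with H3K27me3. With 4000 bp there were 201, with 167 and 149, and 14 and 18. With peaks required in every library there were 275, with 230 and 224, and 5 and 8. With the upper 75 percent of peaks by score there were 408, with 224 and 214 for H3K4me3, 18 and 25 for H3K27me3, and 21 and 9 met by a single broad H3K4me3 region. Without peaks that overlap an input peak there were 772 members, of which 4 and 11 had H3K27me3 and 38 met a broad H3K4me3 region at P21. With H3K27me3 peaks of replicates 1 and 2 only, 7 and 11 had H3K27me3. With those of replicates 3 and later only, a choice made after seeing the data, no count moved by over 1.5 times. Leaving out 1 library at a time gave 239 to 654 members, 204 to 573 with H3K4me3 at P12 and 197 to 581 at P21, 41 to 102 and 22 to 213 with a broad H3K4me3 region, and 8 to 36 and 19 to 51 with H3K27me3. Where a P12 or P21 H3K4me3 library was left out, the peaks of the other alone stood as the consensus. The upper ends 573, 581, 102 and 213 are therefore values of 1 library each. Joining stretches less than 500 bp apart changed nothing.

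The 16 TSS with higher H3K27me3 at P21 than at P12 became 7 with DESeq2, which gave an adjusted p to 17 member TSS, 2 with stage only, 12 with the replicate block and 4 to 17 with 1 library left out. The 0 lower became 0 to 1. For H3K4me3, P21 against P12 gave 0 higher and 0 lower under each setting run, the replicate block and a crossed pairing added after seeing the data included, and 0 to 0 with 1 library left out. Same-numbered H3K4me3 libraries did not deviate together (r from -0.303 to 0.071).

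Against P7, H3K4me3 was lower at 201 (library totals), 117 (trended scaling) and 149 (replicate block) TSS at P21, and at 154, 57 and 93 at P12, with 103 to 459 and 12 to 397 when 1 library was left out. It was higher at 2 with library totals and with TSS within 1 kb at P21, at 1 with DESeq2 and with the replicate block at P12, and at 1 to 3 and 0 to 5 when 1 library was left out. H3K27me3 was higher at 169 (library totals), 40 (trended scaling) and 151 (no filter) TSS at P21, and at 166, 33, 123 and, with DESeq2, 137 at P12. It was lower at 3, 17, 20 and, with DESeq2, 16 TSS at P21, and at 0, 12, 15 and, with stage only, 3 at P12. With 1 library left out the ranges were 66 to 121 and 8 to 13 at P21, and 49 to 96 and 5 to 8 at P12. The cause was not tested. The deepest H3K4me3 library of each stage had the longest peaks at members, and depth was not separated from enrichment.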
